A study of Mus musculus with 6 samples.

Results

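The tricarboxylic acid (TCA) cycle, fatty acid oxidation and the breakdown of branched-chain amino acids were represented by 66 genes among the 11031 rows of the deposited expression table of RAW264.7 cells. They were taken as the rows annotated to the KEGG pathways for the citrate cycle, fatty acid degradation or valine, leucine and isoleucine degradation, after 19 rows that also belong to glycolysis, oxidative phosphorylation or terpenoid backbone synthesis had been set aside. RAW264.7 is a line of mouse macrophages, and RANKL is the cytokine that turns such cells into bone-resorbing osteoclasts. The series holds 3 RANKL-stimulated samples and 3 untreated control samples of this line, all collected after 3 days of culture, and RNA was selected for poly(A) tails before strand-specific paired-end sequencing.

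The columns of the table that hold single libraries carry letters that match no sample label, and the authors' own comparison of conditions was not used. The levels of RANKL-stimulated and control cells were therefore not compared here. What follows describes 1 deposited value per gene, the authors' mean expression, read here as log2 FPKM. In it, FPKM is the number of fragments scaled to transcript length and to the total of mapped fragments. FPKM is scaled to transcript length, so levels can be set side by side between genes. The header names neither the libraries averaged nor the offset added before the logarithm, so differences between genes are given on this log2 scale and not as folds. The spread between samples and the depth of each library were not analysed here. The order of neighbouring genes could for that reason not be tested, and small differences in level carry no statement that the genes differ. Fewer cells of a type and less RNA per cell cannot be told apart in a mean over bulk samples.

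In mitochondria, the TCA cycle burns acetyl-CoA and passes electrons to the respiratory chain. Beta-oxidation cuts fatty acids into acetyl-CoA after they have been joined to coenzyme A and carried across the inner membrane as carnitine esters. Valine, leucine and isoleucine first lose their amino group, then carbon dioxide, and their carbon skeletons enter the cycle as acetyl-CoA or, through propionyl-CoA, as succinyl-CoA. Osteoclasts are rich in mitochondria, and macrophages use intermediates of the cycle such as citrate and succinate in their inflammatory response.

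Macrophage markers were checked first. Of 9 listed, 8 had a row, and all of these lay above the median of the table, from the receptor Adgre1 at 4.45 to the lysozyme Lyz2 at 12.37 log2 FPKM. All 10 osteoclast markers had a row, with the protease Ctsk at 6.74 and the calcitonin receptor Calcr at 0.45 log2 FPKM as the highest and the lowest. Of these 10, 6 were at or above the table's median and 4 were below it. Of 8 osteoblast and fibroblast markers and 6 T, B and dendritic cell markers, 1 each had a row, Runx2 at 0.53 and Zbtb46 at 1.06 log2 FPKM.

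The enzymes lay mostly in the upper part of the table. Their median was 4.82 log2 FPKM, against 3.60 over all rows, and their range was 0.36 to 8.01 log2 FPKM. Of the 66 genes, 50 (75.8%) were at or above the table's median, 34 were in its top 25% and 14 in its top 10%, while 5 were in its lowest 25%. The TCA cycle genes had the highest median, and the levels of the degradation pathways overlapped widely. The 18 TCA cycle genes had a median of 6.23 log2 FPKM, the 25 genes of fatty acid degradation 4.79 and the 33 genes of branched-chain degradation 4.02, with 10 genes counted in both of the degradation pathways. These 10 genes, annotated to both degradation pathways, had a median of 5.20 log2 FPKM. The 15 genes of fatty acid degradation alone had a median of 4.29 and the 23 of branched-chain degradation alone 3.94 log2 FPKM.

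**Figure D1:**
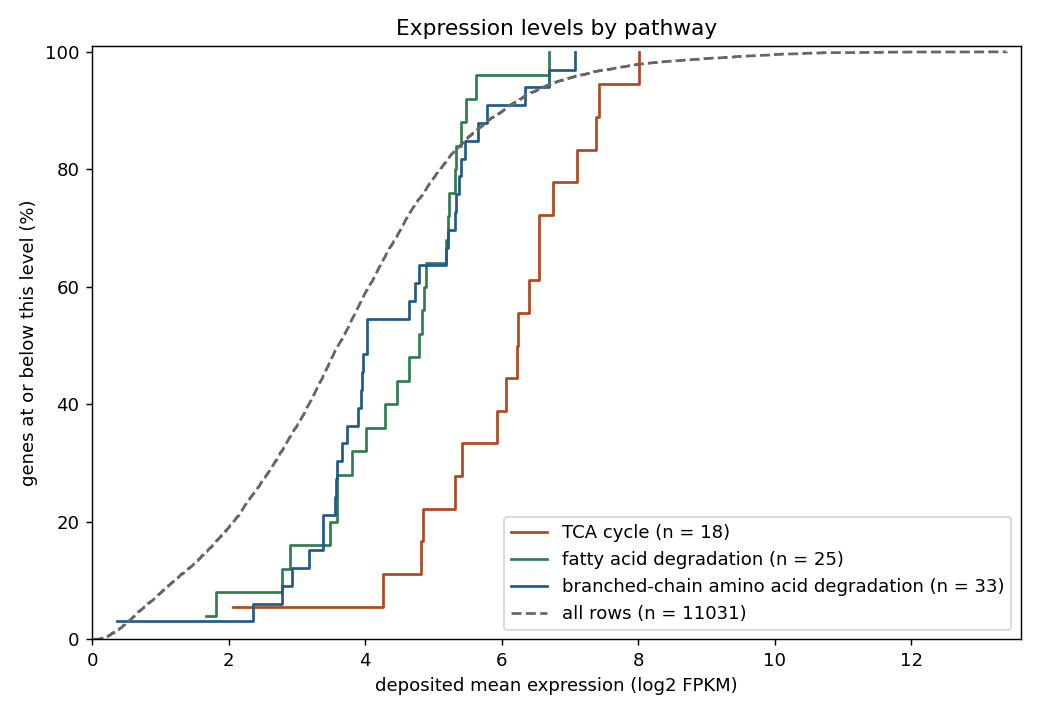
The share of genes (vertical axis, percent) at or below each deposited mean expression (horizontal axis, log2 FPKM), for the TCA cycle (18 genes), fatty acid degradation (25), branched-chain amino acid degradation (33) and all 11031 rows (dashed). The TCA cycle curve lies to the right, with a median of 6.23, against 4.79 and 4.02 for the degradation pathways and 3.60 for all rows; 10 genes stand in both degradation curves.

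Genes annotated to the TCA cycle, some of them for cytosolic enzymes, held most of the highest places. Mdh2, the mitochondrial malate dehydrogenase, had the highest level of all 66 genes at 8.01 log2 FPKM, which put it at the 97.9 percentile of the table. It was followed by the cytosolic malate dehydrogenase Mdh1 at 7.42 and the citrate synthase gene Cs at 7.38 log2 FPKM. The isocitrate dehydrogenase genes were also high, and 11 of the 18 TCA cycle genes were in the top 10% of the table.

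Within the NAD-dependent isocitrate dehydrogenase, the regulatory subunit genes Idh3g and Idh3b were at 6.76 and 6.54 and the catalytic subunit gene Idh3a at 6.24 log2 FPKM, a spread of 0.52. The NADP-dependent isoenzymes, Idh2 of mitochondria and Idh1 of the cytosol, were at 6.55 and 6.39 log2 FPKM. The NADP-dependent isoenzymes of the compartments were thus close, with a difference of 0.15 on the log2 scale. The cytosolic Aco1, which also acts as an iron regulatory protein, was at 4.26 log2 FPKM. For malate dehydrogenase the mitochondrial gene was 0.58 above the cytosolic one on the same scale.

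Among the 66 genes, those of the middle of the cycle were lower than Mdh2, Mdh1 and Cs. Succinate dehydrogenase and the lipoamide dehydrogenase Dld also act there but were set aside by the rule. Their genes were at 5.45 to 7.64 log2 FPKM and are given below. Of the 2-oxoglutarate dehydrogenase complex, the succinyltransferase Dlst was at 6.23 and the decarboxylase Ogdh at 5.32 log2 FPKM. Succinyl-CoA ligase pairs a common alpha subunit, Suclg1, with either of 2 beta subunits, which make GTP or ATP. Suclg1 was at 5.93, the GTP-forming Suclg2 at 4.85 and the ATP-forming Sucla2 at 4.81 log2 FPKM. The beta subunits differed by 0.04, but Suclg2 shares 25.7% of its sampled 50-mers with other genes, most often the model Gm15163, so its level is less certain. Fumarase, encoded by Fh1, was at 5.42 log2 FPKM.

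Citrate has another exit through Acly, the cytosolic enzyme that cleaves it to acetyl-CoA for lipid synthesis. Acly was at 6.06 log2 FPKM, at the 90.4 percentile of the table. Pyruvate carboxylase, which refills the cycle with oxaloacetate, stood at the other end. Its gene Pcx was at 2.06 log2 FPKM, the single TCA cycle gene below the table's median and 5.32 below Cs.

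The rows set aside by the rule complete the cycle. Succinate dehydrogenase, shared with the respiratory chain, had its genes Sdhd at 7.64, Sdha at 6.71, Sdhb at 6.69 and Sdhc at 5.45 log2 FPKM. Pyruvate dehydrogenase, shared with glycolysis, had Pdhb at 6.68, Pdha1 at 5.78 and Dlat at 5.34, and the lipoamide dehydrogenase Dld was at 6.58 log2 FPKM. Among the aldehyde and alcohol dehydrogenases that were set aside, Aldh2 was at 6.50 and Adh7 at 1.48 log2 FPKM. All 19 rows together had a median of 5.67 log2 FPKM.

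**Figure D2:**
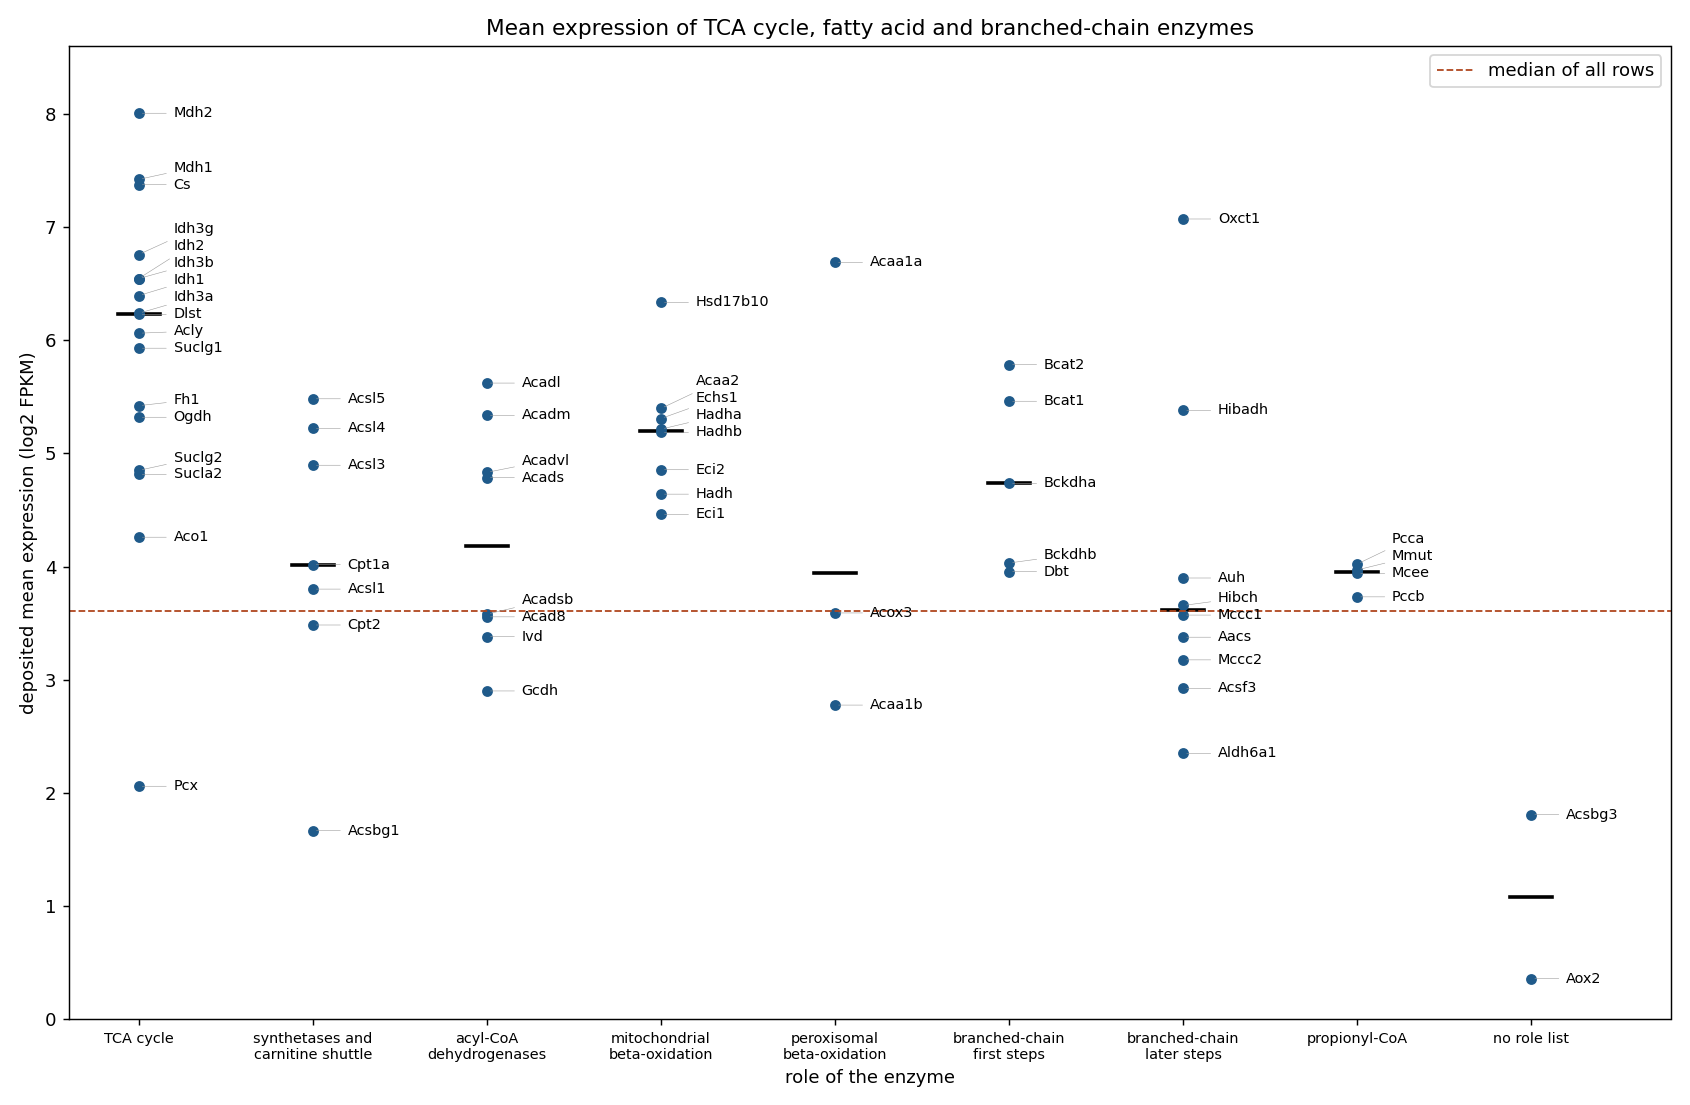
Deposited mean expression (vertical axis, log2 FPKM) of 63 of the 66 genes (points, named), grouped by the role of the enzyme, with the median of each group over all its members (black bar) and of all 11031 rows (dashed, 3.60). TCA cycle genes reach from Pcx at 2.06 to Mdh2 at 8.01; Oxct1 at 7.07 and Acaa1a at 6.69 stand above the rest of their groups.

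Fatty acids are first activated by long-chain acyl-CoA synthetases. The highest of these was Acsl5 at 5.48 log2 FPKM, followed by Acsl4, which prefers arachidonic acid, at 5.22 and by Acsl3 at 4.90. Acsl1 was lower, at 3.80 log2 FPKM. The bubblegum-family synthetases Acsbg3 at 1.81 and Acsbg1 at 1.67 log2 FPKM were among the lowest of the 66 genes.

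Entry into mitochondria runs through carnitine palmitoyltransferases. Cpt1a, the outer-membrane enzyme that sets the rate of beta-oxidation, was at 4.02 log2 FPKM, and Cpt2, its partner on the inner membrane, at 3.48. Both were near the middle of the table, at the 59.3 and the 47.3 percentile. The synthetases Acsl5, Acsl4 and Acsl3 were all above them.

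Acyl-CoA dehydrogenases, which take out the first electrons, formed an upper and a lower set of 4 genes each. The enzymes of straight-chain fatty acids made the upper one, with Acadl (long chains) at 5.62, Acadm (medium chains) at 5.34, Acadvl (very long chains) at 4.83 and Acads (short chains) at 4.79 log2 FPKM. The dehydrogenases of amino acid breakdown made the lower one and were all below the table's median. Acadsb, of isoleucine, was at 3.58, Acad8, of valine, at 3.56, Ivd, of leucine, at 3.38, and Gcdh, of lysine, at 2.90 log2 FPKM. These sets were formed after the values were seen and are a description.

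The genes of the later steps of mitochondrial beta-oxidation spanned 1.87 on the log2 scale. All 8 genes were at or above the table's median, from the enoyl-CoA isomerase Eci1 at 4.46 to Hsd17b10 at 6.33 log2 FPKM, with a group median of 5.20. Hsd17b10 encodes a dehydrogenase of many substrates that acts in isoleucine breakdown and also belongs to the mitochondrial enzyme that processes transfer RNA. The thiolase Acaa2 was at 5.40, the hydratase Echs1 at 5.31, the isomerase Eci2 at 4.86 and the dehydrogenase Hadh at 4.64 log2 FPKM.

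The trifunctional protein, which performs 3 steps on long chains, is built from the products of Hadha and Hadhb. Their levels were 5.21 and 5.19 log2 FPKM, a difference of 0.03. Of the Hadhb 50-mers, 39.8% occur in other genes, most often the model Gm13910, so its level is less certain. The genes lie head to head on chromosome 5, with Hadha on the minus strand at 30118304 to 30155162 and Hadhb on the plus strand at 30155248 to 30184593 in GRCm38, both protein-coding. The 85 bases between their annotated starts are shown because both genes are read away from this stretch, and 69.4% of them are G or C. On the plus strand, at chr5:30155163-30155247 of GRCm38.p6 from RefSeq, they read as follows.
Hadha to Hadhb: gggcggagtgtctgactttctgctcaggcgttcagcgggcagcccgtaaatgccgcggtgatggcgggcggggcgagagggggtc

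Other members that lie near each other had levels far apart. Idh3a and Acsbg1 lie tail to tail on chromosome 9 with 215 bases between them, and Idh3a was 4.57 above Acsbg1 on the log2 scale. Acaa1b and Acaa1a lie 182582 bases apart on the same chromosome. No other member was within 250000 bases of another.

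Peroxisomes shorten very long chains with their own enzymes. Their thiolase gene Acaa1a was at 6.69 log2 FPKM, the seventh highest of the 66, whereas its paralogue Acaa1b was at 2.78, a difference of 3.91. These paralogues share sequence, 20.5% of the 50-mers of Acaa1a and 32.6% of those of Acaa1b, so reads can be split between them. Acox3, an oxidase that acts on branched chains, was at 3.59 log2 FPKM.

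Branched-chain amino acids are transaminated by Bcat2 in mitochondria and by Bcat1 in the cytosol. Both were in the top 25% of the table, with Bcat2 at 5.79 and Bcat1 at 5.46 log2 FPKM. The next enzyme, the branched-chain ketoacid dehydrogenase, commits the carbon skeletons to breakdown. Its genes were lower, with Bckdha at 4.73, Bckdhb at 4.03 and the transacylase Dbt at 3.96 log2 FPKM, a spread of 0.78 without the shared Dld. All 5 of these genes were above the table's median.

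The later steps had levels on both sides of the table's median. In the leucine branch, both subunits of methylcrotonyl-CoA carboxylase were below the table's median, with Mccc1 at 3.57 and Mccc2 at 3.18 log2 FPKM, and the hydratase Auh was at 3.90. In the valine branch, the dehydrogenase Hibadh was at 5.38 and the hydrolase Hibch at 3.66 log2 FPKM. Aldh6a1, the methylmalonate semialdehyde dehydrogenase, was at 2.35 log2 FPKM, in the lowest 25% of the table.

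Propionyl-CoA from valine and isoleucine is turned into succinyl-CoA in 3 steps. The 4 genes of this branch had the smallest range of the 8 role groups, 0.29 on the log2 scale. Pcca and Pccb, the subunits of propionyl-CoA carboxylase, were at 4.02 and 3.73, the epimerase Mcee at 3.94 and the mutase Mmut, which needs vitamin B12, at 3.97 log2 FPKM.

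Oxct1 had the highest level of the 33 genes annotated to branched-chain degradation, ahead of Acaa1a and Hsd17b10. It encodes the mitochondrial transferase by which cells use ketone bodies, and its level of 7.07 log2 FPKM was the fifth highest of the 66. Aacs, which activates acetoacetate in the cytosol for lipid synthesis, was at 3.38 log2 FPKM, 3.69 below Oxct1. The malonyl-CoA synthetase Acsf3 was at 2.92 log2 FPKM. Aox2, an aldehyde oxidase, was the lowest of all members at 0.36 log2 FPKM.

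**Figure D3:**
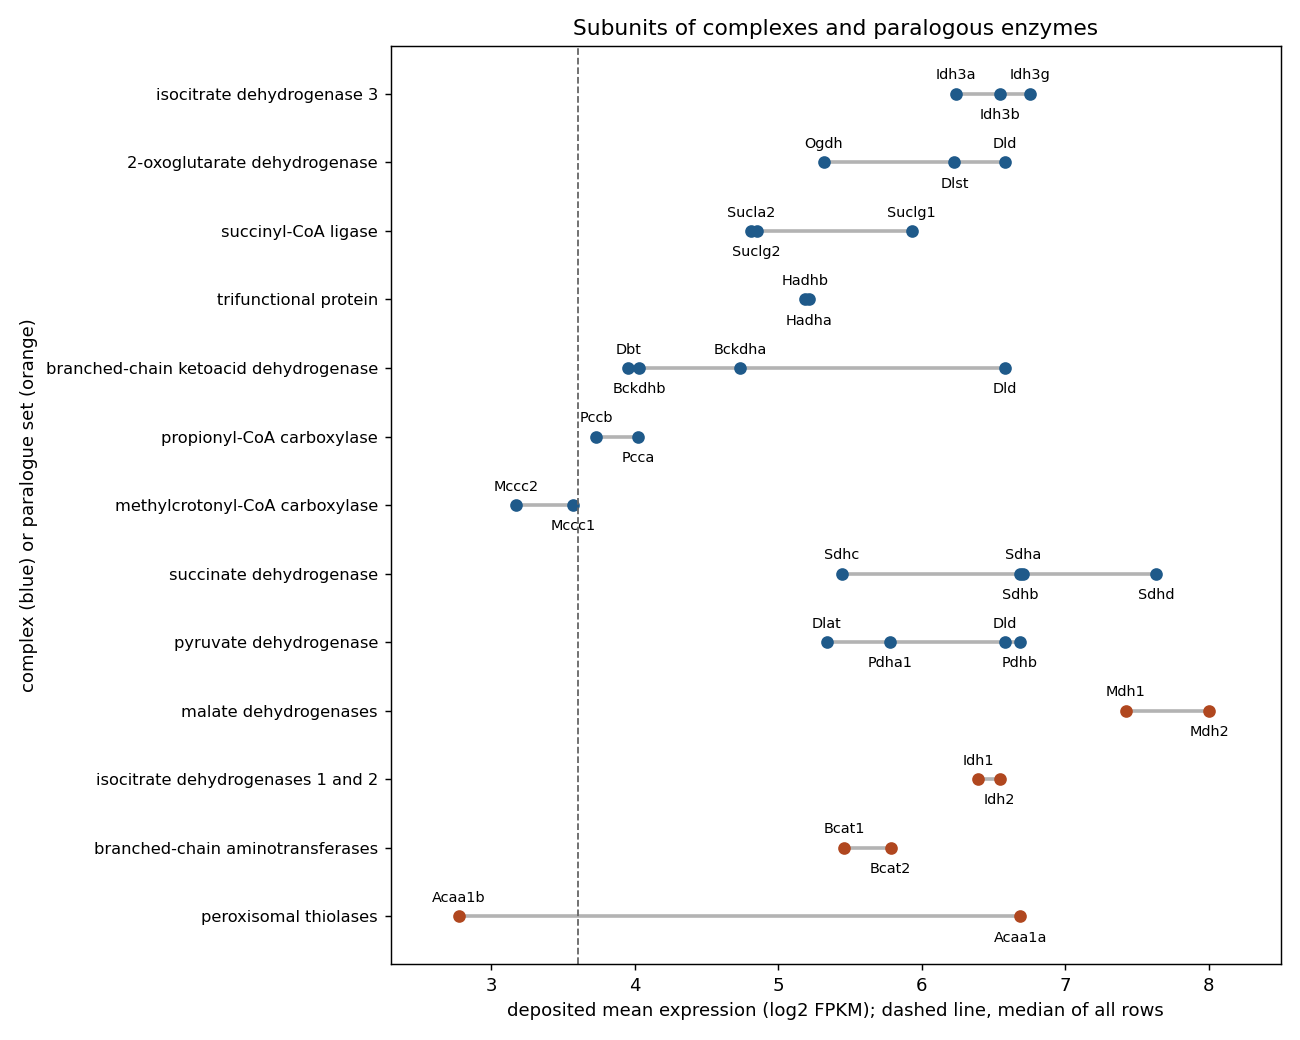
Deposited mean expression (horizontal axis, log2 FPKM) of the subunits of 9 complexes (blue, with subunits from rows set aside) and of 4 sets of paralogous enzymes (orange), with a grey line over each set's range and the median of all rows dashed at 3.60. The subunits of the trifunctional protein lie 0.03 apart, those of the branched-chain ketoacid dehydrogenase span 2.63 with Dld, and Acaa1a stands 3.91 above Acaa1b.

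The subunits of each complex were set side by side. Over 7 complexes, counting only subunits among the 66 genes, the spread ran from 0.03 for the trifunctional protein to 1.12 for succinyl-CoA ligase on the log2 scale. It was 0.29 for propionyl-CoA carboxylase, 0.40 for methylcrotonyl-CoA carboxylase and 0.91 for the 2-oxoglutarate dehydrogenase genes. Dld, the lipoamide dehydrogenase that serves several complexes, was set aside by the rule. With Dld at 6.58 log2 FPKM the spread was 1.26 for 2-oxoglutarate dehydrogenase and 2.63 for the branched-chain ketoacid dehydrogenase. Succinate dehydrogenase and pyruvate dehydrogenase, from rows set aside, had spreads of 2.19 and 1.35 on the log2 scale. The range over all 66 genes was 7.64 on the same scale. With 1 value per gene, these spreads are a description and were not tested.

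The promoters of the enzymes were read for short motifs of factors known from mitochondrial and lipid genes. RefSeq windows of GRCm38.p6, from 250 bases before to 50 after a start, were found for 59 of the 66 genes, and either strand was searched. The element of GABPA, read as CCGGAAGTG, occurred in 2 of the 59 genes (3.39%), against 2.25% of all 27025 genes with a window. The CREB element TGACGTCA also occurred in 2 genes (3.39%), against 2.03% of all. The ERR element TCAAGGTCA, the NRF1 element and the direct repeat bound by PPAR receptors were found in 0 of the 59, with shares over all genes of 0.466%, 1.07% and 0.0481%. The 4 matches are shown with the motif in capitals because they are the ones found, and a match is a description of the sequence only.
Mdh2, chr5:135778512-135778539, plus strand: gagagaatcgTGACGTCAggcctcgctc
Ogdh, chr11:6291536-6291563, plus strand: cccaattctgTGACGTCAcgtcacgccc
Dlst, chr12:85110822-85110850, plus strand: cggccggtctCACTTCCGGttgctgccgg
Cpt2, chr4:107923584-107923612, minus strand: ctatcggtgcCCGGAAGTGcccctgtggg
In Dlst the GABPA element lies on the opposite strand. The matches of Mdh2 and Cpt2 lie at -127 and -13 bases from their RefSeq starts. By the GENCODE positions these 2 matches lie inside the genes, past their annotated starts. Mdh2 was the most highly expressed of the 66 genes at 8.01 log2 FPKM and Dlst was at 6.23, while Cpt2 at 3.48 was below the table's median, and Ogdh was at 5.32.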

How the data were processed

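Poly(A) RNA of 3 RANKL-stimulated and 3 control RAW264.7 samples had been sequenced. The submitters' processing notes name DESeq and mm10, and the study's methods name DESeq2; the aligner, the counter, the annotation release and any row filter are not given in the sources used here. Deposited mean expression values were made by the authors and were read as log2 of FPKM. The base was checked by summing FPKM times transcript length, which cannot pass 1000000. With base 2 and the shortest GENCODE M21 transcript of 10915 rows the sum was 294815, and with base e it was 4924920. An offset was assumed for these sums. The bound sets a limit on larger bases but does not by itself establish base 2, and a linear scale was not tried. The 12 columns of single libraries match no label and were not used. The authors' own columns of fold changes, p-values and up or down words were not used. The planned description of that comparison was therefore not carried out, and depth, replicate spread and tests are not given.

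Percentiles were ranks over 11031 rows. Positions came from GENCODE M21 (GRCm38), which held all 66 genes. Shared sequence was the percent of 50-mers, taken every 10 bases of a gene's transcripts, that occur in another gene's. Members and role lists were chosen with earlier results of these data known; genes were to be named by the highest and lowest 3 fold changes of each role list plus fixed names, and levels took the place of fold changes, with 63 of the 66 shown in a plot and 3 not reported here. Python 3.11.15, pandas 2.3.3 and matplotlib 3.10.9 were used. The search functions were tested on simulated sequences.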

Additional observations from a re-analysis of the deposited data

How the results depend on the processing

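The median of 4.82 log2 FPKM and the count of 50 genes at or above the table's median were recomputed under alternatives chosen after seeing the data. Keeping the 19 rows set aside gave a median of 4.90, and leaving out the 4 genes that share over 10% of their 50-mers gave 4.80. The TCA cycle alone gave a median of 6.23 with 17 genes at or above the table's median, fatty acid degradation alone 4.79 with 18, and branched-chain degradation alone 4.02 with 23. Among rows at or above the table's median the members' median was 5.31, and with the table's median subtracted it was 1.22; both values follow from how these alternatives are built and show nothing about stability.

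The alternatives planned for fold changes (call rules, adjustment, centring, GC content and length, normalization, count filters and left-out replicates) were not run, because the comparison was not used here. No paired analysis was possible because the names of the single-library columns match no numbered sample. The single-library columns were not used, so no error is given for any level.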

Other observations

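Regulators and carriers that serve these pathways from outside were listed as well, and 31 of 35 had a row. Their median was 3.77 log2 FPKM, close to the 3.60 of all rows, and 16 of the 31 were at or above the table's median. The electron transfer flavoprotein genes Etfa and Etfb, which take electrons from the acyl-CoA dehydrogenases, were at 6.85 and 6.05 log2 FPKM, and their oxidoreductase Etfdh was at 4.82. The carnitine-acylcarnitine carrier Slc25a20 was at 3.49 log2 FPKM, next to Cpt2 at 3.48. Mpc2 and Mpc1, which form the mitochondrial pyruvate carrier, were at 5.33 and 4.86 log2 FPKM.

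Of the enzymes that act on branched-chain ketoacid dehydrogenase, the inhibitory kinase gene Bckdk was at 4.76 and the activating phosphatase gene Ppm1k at 1.39 log2 FPKM. Among transcriptional regulators of oxidative metabolism, the receptor gene Esrra was at 4.47, the receptor gene Ppard at 2.74 and the coactivator gene Ppargc1b at 2.35 log2 FPKM. Gabpa, Tfam and Nrf1 were at 4.34, 3.77 and 3.46 log2 FPKM. Ppara, Pparg and Ppargc1a were also listed but had no row. Acod1, whose product makes itaconate from a TCA cycle intermediate in macrophages, was at 4.59 log2 FPKM. Of the pyruvate dehydrogenase kinase genes, Pdk3 was at 4.45, Pdk1 at 4.42 and Pdk2 at 1.94 log2 FPKM, and Pdk4 had no row. The fatty acid synthase gene Fasn was at 4.71, and of the acetyl-CoA carboxylase genes Acaca was at 3.12 and Acacb at 0.19 log2 FPKM.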
